A study of Mus musculus with 12 samples.

Results

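The genes described here encode the enzymes that take triglyceride apart and the proteins that switch those enzymes on or off. They are Pnpla2, Pnpla3, Lipe, Mgll, Abhd6, Abhd5, G0s2, Ces1d, Ces1f and Lipa. All 10 were taken by symbol from the 55573 genes in the count table, and all 10 had enough counts to be among the 15117 genes tested.

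The RNA came from adipocytes made in culture. Cells of the stromal vascular fraction (SVF), which is what is left of digested fat once the floating mature adipocytes are gone, were taken from inguinal white fat of C57BL/6 mice, and they were differentiated and harvested on day 8. The mice carried 1 of 3 forms of PPARγ on both alleles: the wild type (WT), T166A (TA), where an alanine that cannot be phosphorylated replaces the threonine, or T166D (TD), where an aspartate stands in for the phosphorylated threonine. Both alleles are germline knock-ins carried by every cell of the mouse, so the precursors, and not only the adipocytes, bore them. All 3 genotypes received the same induction for 4 days, with 850 nM insulin, 1 nM triiodothyronine, 0.5 mM IBMX, 125 nM indomethacin and dexamethasone, and then insulin and triiodothyronine alone. IBMX blocks the phosphodiesterases that break down cAMP, the second messenger of lipolysis, and insulin restrains lipolysis. No β-adrenergic agonist, the usual trigger of lipolysis, is named for these cultures. Each genotype had 4 libraries, and the labels do not say whether these were separate mice or separate cultures, so the p-values measure the spread between libraries, which may be technical.

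Stored triglyceride is broken down in steps. ATGL, the product of Pnpla2, removes the first fatty acid at the droplet surface, HSL (Lipe) acts mainly on the diglyceride that results, and MGL (Mgll) frees the last fatty acid and glycerol. CGI-58 (Abhd5) activates ATGL, and G0S2 inhibits it. Perilipin 1 holds CGI-58 at the droplet until protein kinase A phosphorylates the perilipin and HSL. Pnpla3 is a relative of Pnpla2 with weak lipase activity, Abhd6 is a second monoglyceride lipase, Ces1d and Ces1f are carboxylesterases that hydrolyse triglyceride at the endoplasmic reticulum and on droplets, and Lipa is the acid lipase of the lysosome. Pnpla2, Lipe and Mgll are known as genes that PPARγ induces in fat, and insulin lowers Pnpla2 RNA.

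The genes lie on different chromosomes apart from 2 pairs. On GRCm38, Pnpla2 runs from 141455198 to 141460743 on chromosome 7, plus strand, and Lipe from 25379527 to 25398710 on the minus strand of the same chromosome. Pnpla3 lies on chromosome 15 (84167837 to 84187236, plus strand), Mgll on 6 (88724412 to 88828360, plus), Abhd6 on 14 (8002902 to 8056763, plus), Abhd5 on 9 (122351608 to 122381524, plus), G0s2 on 1 (193272161 to 193273217, minus) and Lipa on 19 (34492318 to 34527474, minus). Ces1d, from 93166068 to 93197838, and Ces1f, from 93256236 to 93279747, are close paralogs on the minus strand of chromosome 8, with starts 90.2 kb apart and Ces1e between them. How the counting treated reads that fit both paralogs is not given, so the counts of both genes are uncertain to that extent. An antisense gene shares 15.6% of the exon bases of Lipe (4732471J01Rik, with a mean of 46.9 counts per library against 17545 for Lipe), and another shares 15.95% of those of Abhd5 (A730085K08Rik, 14.2 against 6853). Gm26588 shares 3.29% of the exon bases of Mgll from the opposite strand (20.6 counts against 4167), and Gm49513 shares 6.78% of those of Pnpla3 on the same strand (1.5 against 3431). The strand setting of the counting is not given, so reads of such pairs cannot be told apart.

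The set of RefSeq promoters used, on build GRCm38.p6, covered 8 of the 10 genes, all but Ces1d and Ces1f, with 11 promoters in all. Of each, the 250 bases before the start site were searched on both strands. Only the promoter of Abhd5 held AGGTCA, the half-site that PPARγ with RXR recognises, against 14.02% of all 32851 promoters, and none held the pair of half-sites 1 base apart, DR1, which 0.03% of all promoters did. The E-box CACGTG stood in 2 of the 11, 1 each of Lipe and Mgll, against 6.02% of all. The half-site TGACG of the cAMP response element stood in 3, those of G0s2, Abhd5 and Pnpla3 (17.77% of all), and the whole element TGACGTCA, which contains that half-site on both strands, in that of Pnpla3 (1.55% of all). The GC box GGGCGG stood in 7 (32.74% of all). The FoxO site GTAAACA stood in 2, 1 each of Lipe and Mgll (3.17% of all), and the CCAAT box in 3, those of Abhd6, Pnpla3 and Lipa (33.85% of all). These matches are letters, not sites of binding, and PPARγ is known to act on fat genes largely from enhancers outside such windows. The promoters printed are those of the first lipase (Pnpla2), of its activator, with the AGGTCA match (Abhd5), of the gene whose RNA did not differ between genotypes by the test (Pnpla3) and of the gene that rose in TD (Lipa). Each is written 5′ to 3′ up to the base before the RefSeq start, with every match to the half-site, the E-box, the cAMP motifs and the GC box, on either strand, in capitals.
Pnpla2, chr7:141454938-141455187, plus strand: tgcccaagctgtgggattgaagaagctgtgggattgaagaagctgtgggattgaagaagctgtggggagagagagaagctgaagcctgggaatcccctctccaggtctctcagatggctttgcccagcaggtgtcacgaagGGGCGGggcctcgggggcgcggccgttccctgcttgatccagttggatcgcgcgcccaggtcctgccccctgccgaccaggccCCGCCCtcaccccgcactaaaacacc
Abhd5, chr9:122351366-122351615, plus strand: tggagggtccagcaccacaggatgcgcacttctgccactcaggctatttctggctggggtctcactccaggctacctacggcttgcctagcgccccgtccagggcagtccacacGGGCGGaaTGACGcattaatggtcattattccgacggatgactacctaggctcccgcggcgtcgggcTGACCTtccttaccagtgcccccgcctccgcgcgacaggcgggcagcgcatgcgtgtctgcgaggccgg
Pnpla3, chr15:84167566-84167815, plus strand: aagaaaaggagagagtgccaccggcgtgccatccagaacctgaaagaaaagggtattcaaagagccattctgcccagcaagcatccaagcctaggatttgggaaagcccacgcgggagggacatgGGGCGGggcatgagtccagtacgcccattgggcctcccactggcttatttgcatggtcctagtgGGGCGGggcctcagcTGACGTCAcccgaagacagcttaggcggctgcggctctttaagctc
Lipa, chr19:34527475-34527724, minus strand: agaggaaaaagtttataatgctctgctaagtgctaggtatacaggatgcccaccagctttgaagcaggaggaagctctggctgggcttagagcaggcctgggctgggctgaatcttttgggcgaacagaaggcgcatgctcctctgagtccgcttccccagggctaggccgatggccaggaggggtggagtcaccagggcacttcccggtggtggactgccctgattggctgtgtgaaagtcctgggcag
All 4 windows lie upstream of the gene in GENCODE, but for the last bases of that of Abhd5, which are in its first exon. In the Pnpla2 window the capitals are GC boxes at 109 to 104 and at 26 to 21 bases before the start. In that of Abhd5 the AGGTCA match lies on the minus strand, at 69 to 64 bases before the start, read there as TGACCT. In that of Pnpla3 the cAMP response element lies at 46 to 39 bases before the start. The Lipa window held none of the capitalised motifs and a CCAAT box on the minus strand at 26 to 22 bases before the start.

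The libraries held between 16553324 and 20324286 counts, and every WT library was deeper than every TA and TD library. Levels are given as CPM, counts scaled to a common library size after TMM normalization. The genotypes were compared by edgeR's quasi-likelihood test in a single fit to all 12 libraries, with Benjamini-Hochberg adjustment over the 15117 genes; a gene passed with an adjusted p under 0.05. All cultures expressed adipocyte markers, but not to the same extent, and they also expressed markers of preadipocytes and fibroblasts. The summed CPM of 9 adipocyte markers ran from 12085 to 14364 in WT, from 12599 to 16319 in TA and from 7978 to 9853 in TD, and 7 of the 9 were lower in TD than in WT (Adipoq by 0.28 on the log2 scale, adjusted p = 0.0254). The summed CPM of 10 markers of preadipocytes and fibroblasts ran from 9533 to 12942 in WT, from 11025 to 19607 in TA and from 16192 to 24437 in TD, and 7 of the 9 tested were higher in TD than in WT. Dlk1, a marker of that list, had at most 1 count in any library. Sums for skeletal muscle (11 markers; 5.55 to 10.3 in WT, 13.2 to 44.8 in TA and 14.0 to 159.7 in TD) and endothelium (7 markers; 27.0 to 57.6, 50.5 to 92.1 and 104 to 133) were also higher in TD than in WT, at far lower levels; 9 of 9 muscle and 6 of 7 endothelial markers tested passed as higher. In TA against WT 6 of 9 preadipocyte and fibroblast, 4 of 9 muscle and 4 of 7 endothelial markers tested passed as higher. The macrophage sum (10 markers) overlapped between WT and both mutants, at 273 to 803 in WT, 133 to 584 in TA and 616 to 857 in TD. No macrophage marker passed in either mutant against WT. The sum was higher in each TD library than in each TA library, and 3 of 9 tested passed as higher in TD against TA, where 7.33% of all genes did. The beige sum (9 markers) was 82.5 to 129 in WT, 93.6 to 129 in TA and 37.9 to 49.2 in TD. Of its 7 markers tested, 4 passed as lower in TD than in WT and none as higher. TA cultures departed from WT both ways, 3 of these markers passing as higher and 2 as lower, so the similar sums hid opposite changes. Mean CPM of Elovl3 was 32.9 in WT and 50.4 in TA, while that of Cox7a1 was 40.1 and 22.4. Ucp1 had at most 5 counts in any library. In RNA of a whole culture, fewer adipocytes and less RNA of a gene per adipocyte cannot be told apart.

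Of the 10 genes, Pnpla2, Lipe, G0s2 and Abhd5 were among the abundant RNAs of these cells. By mean CPM over the 15117 genes tested, Lipe ranked 100th, G0s2 183rd and Abhd5 307th, but Ces1f 4630th, Ces1d 5342nd and Abhd6 9491st. The 10 together took 0.545% to 0.617% of all counts in WT, 0.487% to 0.697% in TA and 0.384% to 0.441% in TD. Pnpla2 alone took 0.294% to 0.340% in WT, and by mean CPM it ranked 27th of the genes tested. Compared per length of exon, in RPKM, the order in WT was Pnpla2 at 1062 ± 99.9 (SD, n = 4), G0s2 at 759 ± 77.4, Lipe at 181 ± 10.3, Pnpla3 at 119 ± 12.3, Abhd5 at 65.7 ± 7.42, Mgll at 47.6 ± 7.19, Ces1d at 17.0 ± 1.79, Lipa at 11.8 ± 0.810, Ces1f at 9.39 ± 2.41 and Abhd6 at 3.87 ± 0.552. Of neighbours in that order, only Lipa and Ces1f had libraries that overlapped. The inhibitor of ATGL was thus the second most abundant RNA per length of the set, far above the activator. In CPM, not divided by length, the WT means were closer, 661 for G0s2 and 391 for Abhd5. Their exon lengths were 871 and 5956 bases, so the order per length depends on the exons counted. In TD, 3 pairs of neighbours overlapped: Pnpla2 (668 ± 39.6) with G0s2 (572 ± 70.2), Lipe (126 ± 6.71) with Pnpla3 (121 ± 6.54), and Ces1d (7.82 ± 2.05) with Ces1f (7.45 ± 0.367). In TA, Pnpla2 (1110 ± 237) likewise overlapped with G0s2 (748 ± 127), and Lipe (183 ± 31.7) with Pnpla3 (125 ± 32.4). Ces1f (18.6 ± 3.12) stood above Ces1d (15.1 ± 2.50) and Lipa (11.2 ± 0.968) in TA, although its libraries overlapped with those of Ces1d.

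**Figure D1:**
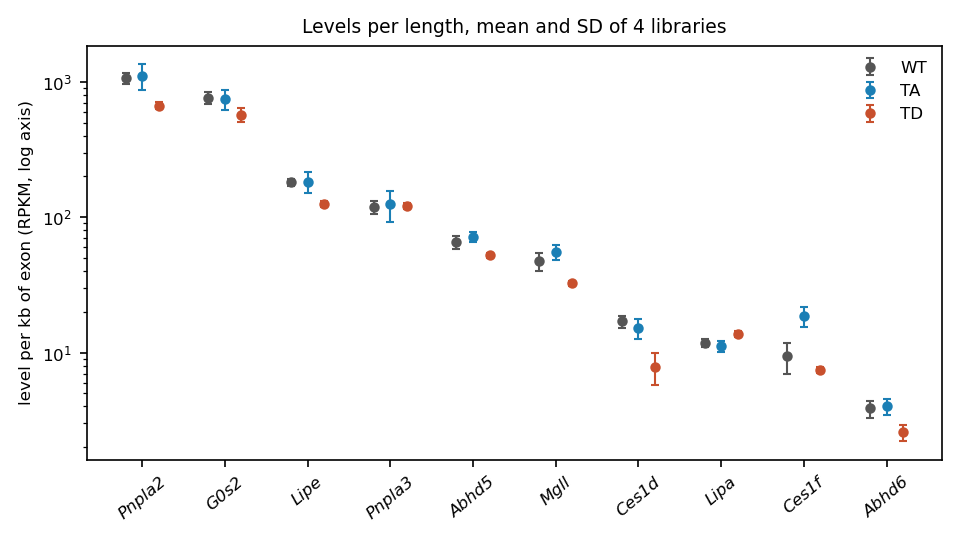
Level per kilobase of exon (RPKM, log axis) of each of the 10 genes in WT, TA and TD, as the mean and SD of 4 libraries, in the order of WT. Pnpla2 and G0s2 lead in every genotype, and Ces1f stands at 18.6 in TA against 9.39 in WT and 7.45 in TD.

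Relative to all RNA counted, TD cultures held less RNA of most of these genes than WT cultures. The triglyceride, diglyceride and monoglyceride lipases fell, as did both the activator and the inhibitor of ATGL, by 20.4% to 54.0% of the WT mean. In all, 7 of the 10 genes fell (Pnpla2, Lipe, Mgll, Abhd6, Abhd5, G0s2 and Ces1d), where 14.2% of all genes tested were lower in TD. Lipa rose, where 15.1% of all genes were higher, and Pnpla3 and Ces1f did not pass. For the 7 genes that fell, each TD library lay below each WT library, which held for 16.4% of the genes tested. The median log2 fold change of the 10 genes was -0.47, against 0.01 for all genes tested.

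Pnpla2 had 3427, 2926, 2973 and 3509 CPM in the WT libraries, 3144, 4135, 2469.7 and 3665 in the TA libraries and 2096, 2097, 2034 and 1844 in the TD libraries. The TD libraries were all lower than the rest and close to one another, while the TA libraries spread to either side of WT. Its RNA fell by 0.67 on the log2 scale in TD against WT (SE 0.129, adjusted p = 0.00124) and stood at 0.629 of the WT mean. Of all genes tested, 3.91% had a lower log2 fold change in that comparison.

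The activator and the inhibitor of ATGL fell as well. Abhd5 had 423, 337, 373 and 432 CPM in WT, 439, 467, 384 and 412 in TA and 310.3, 323, 317 and 295 in TD. All TD libraries lay below all WT and TA libraries, but by less than for Pnpla2, with a fall of 0.33 against WT (SE 0.0869, adjusted p = 0.00956). G0s2 had 720.5, 637, 577 and 711 CPM in WT, 592, 687, 537 and 789 in TA and 566, 515, 492 and 419 in TD. The highest TD library lay just under the lowest WT library. Its fall of 0.41 (SE 0.119, adjusted p = 0.0167) no longer passed without WT replicate 1 (adjusted p = 0.0597) or without TD replicate 4 (adjusted p = 0.0647).

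Lipe, the diglyceride lipase that protein kinase A phosphorylates, had 1146, 1021, 1018 and 1079.5 CPM in WT, 1039, 1274, 838 and 1160.4 in TA and 770.2, 772, 724 and 690.1 in TD. WT and TD libraries each lay close together and well apart from each other, and Lipe fell by 0.53 (SE 0.106, adjusted p = 0.00167). Mgll had 257, 214, 209 and 286 CPM in WT, 305, 321, 244 and 256 in TA and 170.2, 157, 173 and 160.2 in TD, and it fell by 0.55 (SE 0.107, adjusted p = 0.00136). Abhd6, far less abundant, ran from 7.50 to 10.6 CPM in WT and from 5.00 to 6.87 in TD, at 94 to 214 counts in these libraries, and fell by 0.58 (SE 0.151, adjusted p = 0.00889). The 3 enzymes thus fell by like amounts, with standard errors that cover the distances between them.

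Ces1d had the largest fall of the set. It had 43.2, 34.4, 43.6 and 39.7 CPM in WT, 31.6, 43.6, 30.8 and 37.3 in TA and 24.5, 17.9, 18.9 and 12.7 in TD. The TD mean was 0.460 of the WT mean, the log2 fold change was -1.12 (SE 0.157, adjusted p = 0.000187), and 0.701% of all genes tested had a lower one. Its paralog Ces1f, at 32.01, 22.05, 41.0 and 28.4 CPM in WT and 25.3, 23.2, 25.7 and 23.7 in TD, overlapped between these genotypes. Its log2 fold change of -0.33 (95% interval -0.66 to -0.01, adjusted p = 0.109) did not pass, although it did without WT replicate 2, the lowest WT library (-0.47, adjusted p = 0.0163).

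Lipa was the exception in direction. It had 74.1, 85.6, 84.0 and 77.1 CPM in WT, 76.9, 71.2, 84.4 and 70.1 in TA and 89.1, 91.4, 92.1 and 99.6 in TD, where each library lay above those of the other genotypes (15.8% of all genes had each TD library above each WT library). The rise was small, 0.21 on the log2 scale (SE 0.0758, adjusted p = 0.0438), and near the threshold: it no longer passed without WT replicate 1 or 4, without TA replicate 1 or without any single TD library (adjusted p 0.0505 to 0.135). Pnpla3 was the member with the least difference, at 163 to 204 CPM in WT, 149 to 262 in TA and 179 to 201 in TD. Its log2 fold change of 0.03 in TD against WT had a 95% interval of -0.25 to 0.31.

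**Figure D2:**
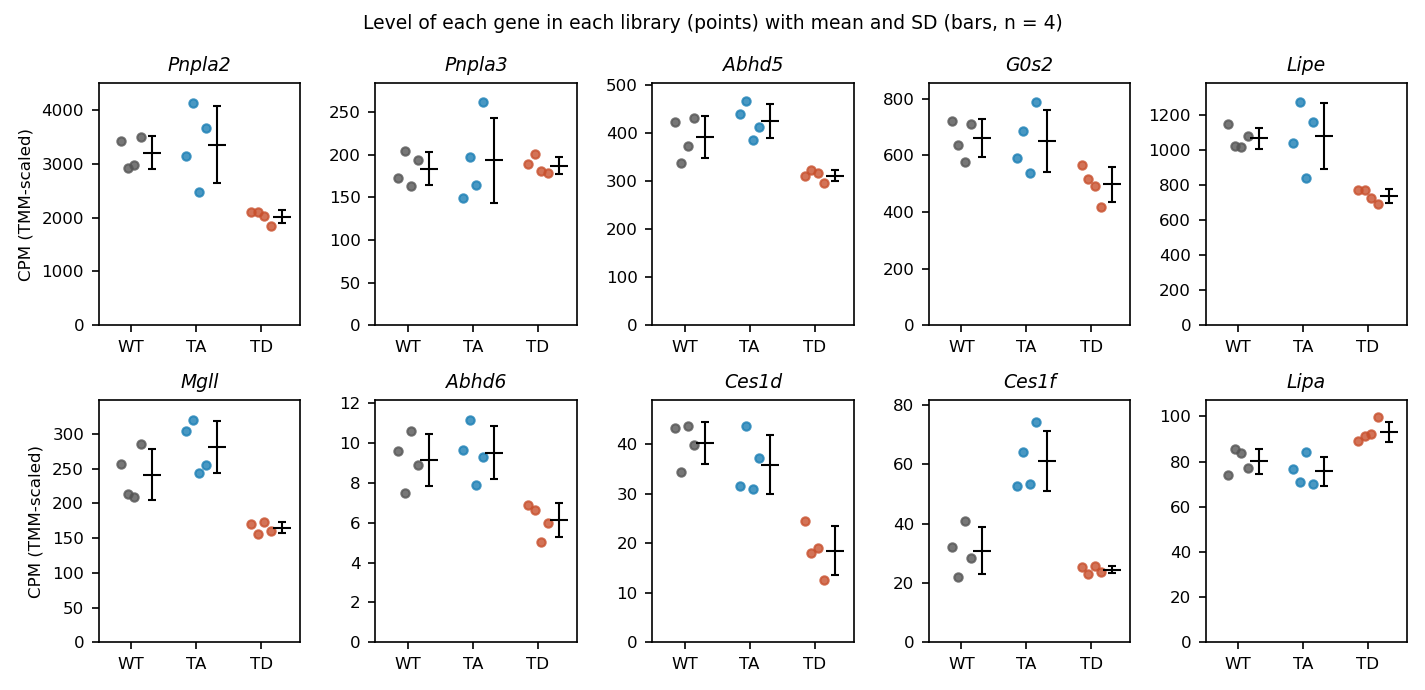
CPM of each of the 10 genes in every library (points) of WT, TA and TD, with the mean and SD of 4 libraries (bars); each panel starts at 0 and has its own scale. The TD libraries lie below all WT libraries for 7 genes and above them for Lipa, and Ces1f is the gene whose TA libraries stand apart.

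In TA against WT 1 of the 10 genes passed the test, Ces1f, which rose. It had 52.6, 64.1, 53.3 and 74.3 CPM in TA, all above the 4 WT libraries, and rose by 0.98 on the log2 scale (SE 0.148, adjusted p = 0.000380), to 1.98 times the WT mean. Of all genes tested, 6.72% were higher and 4.41% lower in TA than in WT, and 7.71% had each TA library above each WT library. The other 9 genes did not pass, with log2 fold changes from -0.17 for Ces1d to 0.22 for Mgll, and their TA and WT libraries overlapped; 13.6% of all genes tested had libraries that did not. The median over the 10 genes was 0.06, against -0.01 for all genes. The Mgll value had a 95% interval of -0.01 to 0.44 (adjusted p = 0.211), that of Pnpla2 -0.21 to 0.33 and that of Lipe -0.21 to 0.24.

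The TA libraries varied more than the others in Pnpla2, with a coefficient of variation of 21.3%, against 9.40% in WT and 5.92% in TD. The same held for Lipe (17.3%, against 5.69% and 5.34%) and G0s2 (17.0%, against 10.2% and 12.3%). It did not hold for Abhd5 (8.32%, against 11.3% and 3.86%). TA replicate 2 was the highest of its genotype and TA replicate 3 the lowest for Pnpla2 and Lipe. The same 2 libraries had the highest (16319) and the lowest (12599) summed CPM of adipocyte markers in TA and the lowest (11025) and the highest (19607) of preadipocyte and fibroblast markers. The part of this in the results was not tested; without TA replicate 3 the log2 fold change of Pnpla2 in TA against WT was 0.19 and without TA replicate 2 it was -0.06.

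Set directly against TA, TD cultures had lower RNA of 8 of the 10 genes, where 9.37% of all genes tested were lower, and higher RNA of Lipa, where 7.33% were higher. Pnpla3 did not pass. The largest fall was that of Ces1f, by 1.32 (SE 0.151, adjusted p = 3.28e-05), followed by Ces1d, by 0.95 (adjusted p = 0.000849), Mgll, by 0.77 (adjusted p = 0.000207), and Pnpla2, by 0.73 (adjusted p = 0.00125). Abhd6 fell by 0.63, Lipe by 0.54, Abhd5 by 0.45 and G0s2 by 0.39, and Lipa rose by 0.30 (adjusted p = 0.0139). The other 7 genes that fell had each TD library below each TA library, which held for 10.6% of all genes, and Lipa had each above, which held for 9.32%. The libraries of G0s2 overlapped, and it no longer passed without TA replicate 2 or 4 or without TD replicate 2, 3 or 4 (adjusted p 0.0614 to 0.122). Lipa did not pass without TD replicate 4 (adjusted p = 0.0544). The median over the 10 genes was -0.59, against 0.02 for all genes. This comparison shares its TD and TA libraries with the others, so it is no independent evidence.

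**Figure D3:**
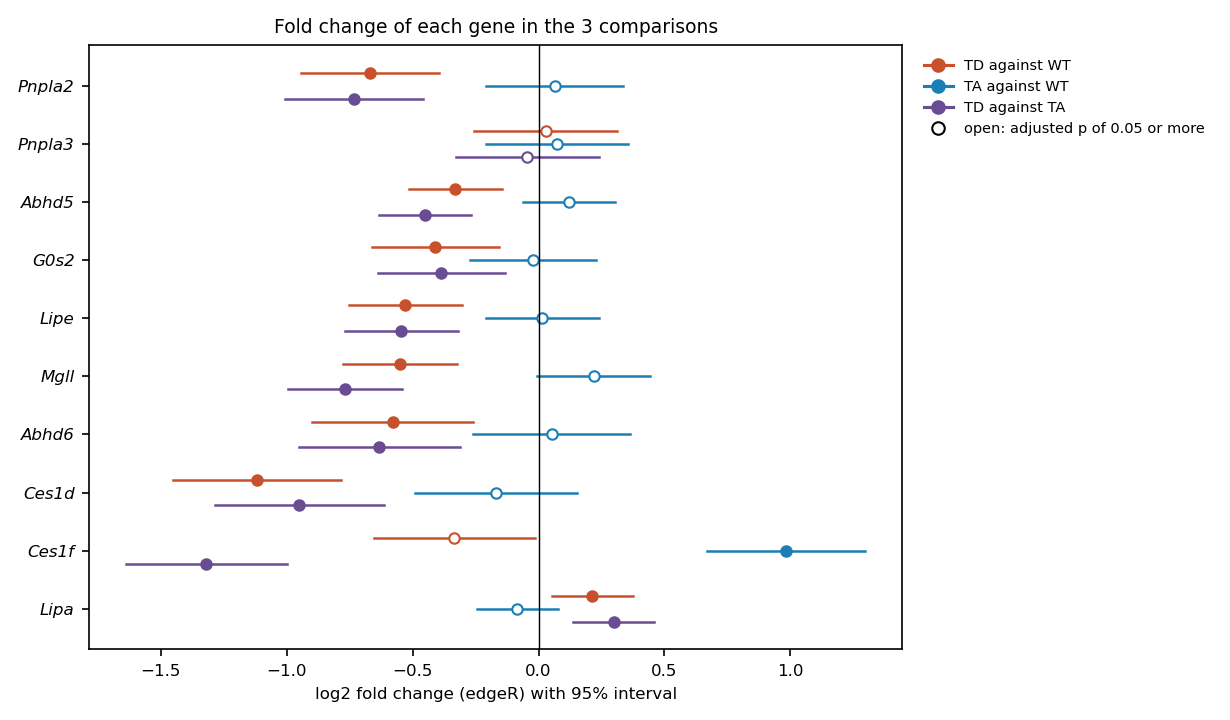
log2 fold change of each gene (points, with 95% intervals) in TD against WT, TA against WT and TD against TA; open points have an adjusted p of 0.05 or more. In TD against WT 7 genes lie below 0 as filled points and Lipa above 0; in TA against WT Ces1f is the single filled point.

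Ratios of counts within a library, which no scaling of the libraries touches, showed how the balance within the chain differed. They were compared between genotypes by permuting the labels of the 4 and 4 libraries (exact, two-sided), which cannot give a p under 0.0286; over the 18 tests the smallest adjusted p was 0.0857, so none passed the correction. The count of Pnpla2 per count of its inhibitor G0s2 was 4.76, 4.59, 5.15 and 4.94 in WT, 5.32, 6.02, 4.596 and 4.65 in TA and 3.70, 4.07, 4.14 and 4.40 in TD. It was lower in each TD library than in each WT and TA library, by 0.25 on the log2 scale against WT and 0.33 against TA (exact permutation p = 0.0286 for each, adjusted p = 0.0857). Activator per inhibitor, Abhd5 to G0s2, overlapped between all genotypes, at 0.530 to 0.647 in WT, 0.523 to 0.743 in TA and 0.548 to 0.704 in TD.

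Lipe per Pnpla2, the second lipase against the first, was 0.308 to 0.349 in WT, 0.308 to 0.339 in TA and 0.356 to 0.374 in TD, higher in each TD library than in each of the others, by 0.14 against WT (exact permutation p = 0.0286, adjusted p = 0.0857). Mgll per Lipe and Mgll per Abhd6 overlapped between the genotypes. Ces1f per Ces1d was 0.641 to 0.940 in WT, 1.47 to 1.99 in TA and 1.03 to 1.87 in TD. Both mutants thus stood above WT, TA by 1.18 and TD by 0.85 on the log2 scale, although in TA it was Ces1f that rose and in TD it was Ces1d that fell.

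**Figure D4:**
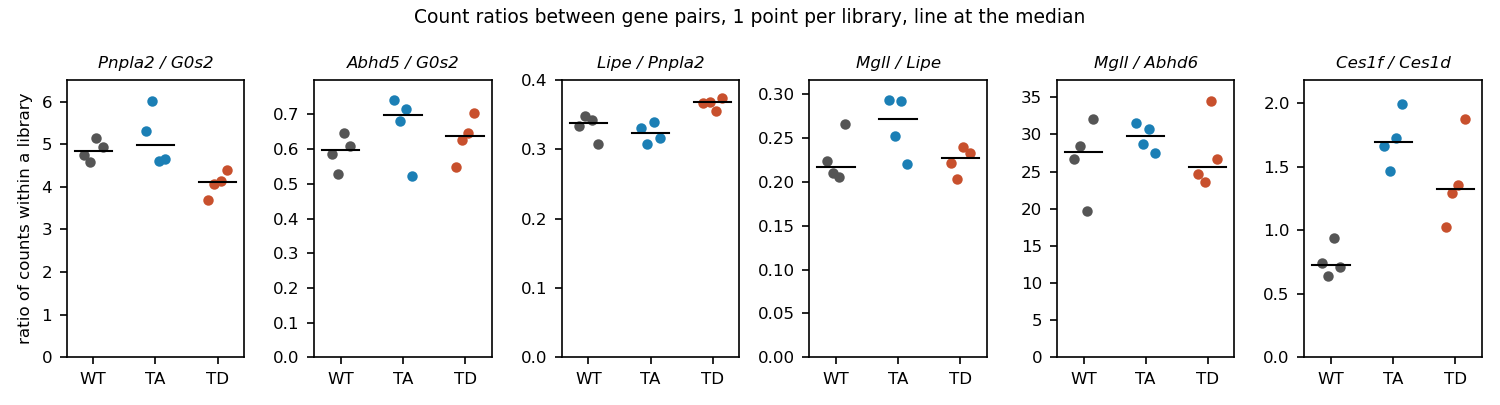
Ratio of the counts of 2 genes within each library (points) of WT, TA and TD, with a line at the median; each panel starts at 0. Pnpla2 per G0s2 is lower, and Lipe per Pnpla2 higher, in the 4 TD libraries than in the others, and Ces1f per Ces1d is below 1 in the WT libraries alone.

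Because the adipocyte markers fell in TD beside the lipases, the fit was repeated with each library scaled to the geometric mean of those 9 markers, an alternative chosen after the data had been seen. The markers include Plin1, Fabp4, Cidec and Pparg. This scaling moved the median log2 fold change of all genes to 0.52 in TD against WT and 0.49 in TD against TA, and left 1.35% and 1.41% of the genes lower, 62.3% and 58.9% higher. Relative to the markers, Lipe in TD against WT stood at -0.02 (95% interval -0.19 to 0.15), Mgll at -0.03 (-0.27 to 0.21), Pnpla2 at -0.16 (-0.34 to 0.02), Abhd6 at -0.08, G0s2 at 0.09 and Abhd5 at 0.18, and none of these passed. Their fall was thus about as large as that of the markers, within these intervals. Ces1d still passed as lower, at -0.63 (95% interval -0.92 to -0.34, adjusted p = 0.00178), and Lipa (0.72) and Pnpla3 (0.53) passed as higher. Against TA, Pnpla2 (-0.24), Mgll (-0.29), Ces1d (-0.49) and Ces1f (-0.84) passed as lower on this scale, and Lipa (0.76) and Pnpla3 (0.44) as higher. In TA against WT Ces1f stood at 1.00 (adjusted p = 0.00197) and no other member passed, as with the usual scaling (3.11% of all genes were higher).

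**Figure D5:**
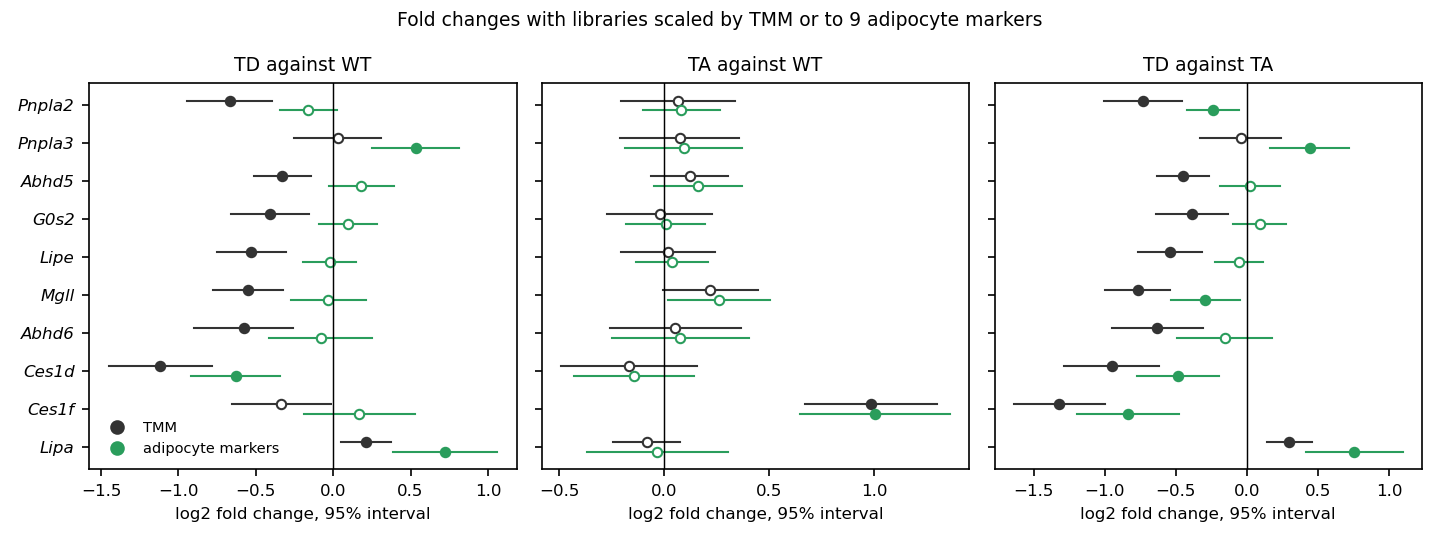
log2 fold change of each gene, with its 95% interval, in the 3 comparisons, with libraries scaled by TMM (dark) or to 9 adipocyte markers (green); filled points have an adjusted p under 0.05. In TD against WT the values of Lipe, Mgll and Pnpla2 move from -0.53, -0.55 and -0.67 to -0.02, -0.03 and -0.16, and that of Ces1d to -0.63.

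The other genes of the pathway were looked at in 6 lists of 116 genes, of which 100 were tested. In TD against WT 33 fell and 11 rose, in TA against WT 9 fell and 15 rose, and in TD against TA 30 fell and 6 rose. The 24 calls in TA against WT became 14 without WT replicate 3 and 15 without WT replicate 1 or TA replicate 1. Calls in either direction made up 29.2%, 11.1% and 16.7% of all genes in these comparisons. Scaled to the adipocyte markers, 5 fell and 61 rose in TD against WT, where 1.35% of all genes were lower and 62.3% higher. The lists include Plin1, Cidec, Fabp4 and Pparg, which are among the markers used for that scaling.

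Of the droplet proteins that hold or release the lipases, 6 of 11 tested fell in TD against WT and none rose (median log2 fold change -0.36). Of all genes tested, 14.2% were lower and 15.1% higher in that comparison. Perilipin 5 (Plin5), which brings ATGL and droplets to mitochondria, had 35.2, 21.3, 28.9 and 31.5 CPM in WT, 25.0, 40.03, 23.5 and 41.5 in TA and 8.74, 6.74, 9.31 and 5.57 in TD. It fell by 1.94 against WT (SE 0.213, adjusted p = 5.67e-05), a larger fall than that of any of the 10 genes. Cidec, which fuses droplets, fell by 0.97 in TD (adjusted p = 0.000233) and rose by 0.50 in TA (adjusted p = 0.0320; its libraries overlapped). Perilipin 1 (Plin1), the keeper of Abhd5, fell by 0.36 (adjusted p = 0.00934), close to the fall of Abhd5 itself. Hilpda, which inhibits ATGL as G0s2 does, did not pass in either mutant against WT (0.07 in TD, -0.30 in TA) but was higher in TD than in TA by 0.37 (adjusted p = 0.0227).

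Among the genes of hormone signalling to lipolysis, 10 of 29 tested fell and 4 rose in TD against WT, where 14.2% of all genes were lower and 15.1% higher (median log2 fold change -0.14). The A1 adenosine receptor Adora1, which lowers cAMP, fell by 0.84 (adjusted p = 0.000453), and Prkg1, the kinase activated by cGMP, rose by 0.56 (adjusted p = 0.0252). In TA against WT 5 fell and 2 rose, where 4.41% of all genes were lower and 6.72% higher (median -0.07). The natriuretic peptide receptor Npr1, which makes cGMP, had 93.8, 89.4, 77.9 and 72.7 CPM in WT, 40.7, 45.7, 32.6 and 43.8 in TA and 76.4, 67.0, 85.0 and 62.8 in TD. Each TA library lay below the rest, with a fall of 1.04 against WT (adjusted p = 2.65e-05), and TD was higher than TA by 0.84 (adjusted p = 0.000207). The prostaglandin E receptor Ptger3, which lowers cAMP, rose by 0.64 in TA (adjusted p = 0.00151) and was lower in TD than in TA by 0.75.

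Of the genes that handle the released fatty acids and glycerol, 8 of 15 fell in TD against WT and none rose (median -0.34). There 14.2% of all genes were lower and 15.1% higher. In TA against WT 7 of the 15 rose and 1 fell (median 0.27), where 6.72% of all genes were higher and 4.41% lower. In TD against TA 9 fell and none rose (median -0.49), where 9.37% of all genes were lower and 7.33% higher. The fatty acid binding protein Fabp5 fell by 0.83 in TD (adjusted p = 0.000203). The fatty acid transporter Slc27a1 had 309, 303, 275 and 299 CPM in WT, 795, 802, 794 and 919 in TA and 319.7, 314, 363 and 356 in TD. Its rise of 1.48 in TA (SE 0.0797, adjusted p = 1.59e-08) set TA apart from both other genotypes, with a fall of 1.29 in TD against TA (adjusted p = 6.19e-08).

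Of other lipases and ester hydrolases, 14 of 27 were tested. Lipoprotein lipase (Lpl), which works outside the cell, fell in TD by 0.40 (adjusted p = 0.00294), and Ces2g rose by 0.61 (adjusted p = 0.00885). Endothelial lipase (Lipg), at 1.84 CPM in WT, rose in TA by 1.70 (adjusted p = 0.00580) and was lower in TD than in TA by 1.55. The summed CPM of endothelial markers was 27.0 to 57.6 in WT, 50.5 to 92.1 in TA and 104 to 133 in TD, and its part in the Lipg result was not tested. Dagla, a diglyceride lipase, fell in TA against WT by 0.50 (adjusted p = 0.0205). In the lysosomal list, the surroundings of Lipa, 5 of 20 rose in TD against WT, 3 fell and 12 did not pass, where 15.1% of all genes were higher and 14.2% lower (median log2 fold change 0.02, against 0.01 for all genes). The autophagy receptor Sqstm1 fell most, by 0.36 (adjusted p = 0.00158). In TA, Scarb2 rose by 0.25 (adjusted p = 0.0181) and Npc1 fell by 0.30 (adjusted p = 0.0415), and in TD against TA Mitf rose by 0.49 (adjusted p = 0.00688) and Ctsd fell by 0.25 (adjusted p = 0.0230). 

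Among 11 transcription factors known to act on lipase genes, 3 fell in TD against WT and none rose, where 14.2% of all genes were lower (median log2 fold change -0.08, against 0.01 for all genes). Pparg itself fell by 0.58 (SE 0.0946, adjusted p = 0.000429), from 354 to 237 CPM, and did not pass in TA (0.08, 95% interval -0.12 to 0.28). A point mutation cannot be read from counts per gene, so these levels do not check the genotype. Ppara fell by 0.71 in TD (adjusted p = 0.00678). Egr1, which represses Pnpla2, had 44.1, 41.2, 31.8 and 66.8 CPM in WT, 15.4, 13.2, 21.5 and 15.9 in TA and 42.7, 49.96, 46.7 and 49.1 in TD, and fell by 1.47 in TA against WT (adjusted p = 6.93e-05). It was higher in TD than in TA by 1.51, and Ppara was lower by 0.75. Srebf1 rose in TA by 0.32 (adjusted p = 0.0216; its libraries overlapped).

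For the 3 members with the widest range between genotypes, the tested genes with the most similar pattern were found by the root mean square difference of log2 CPM over the 12 libraries, each gene centred on its own mean. For Ces1f they were Myh10 (0.168), Cyp2b10 (0.219) and Slc25a1 (0.226), against a median of 0.652 for all genes. Slc25a1, the mitochondrial citrate carrier, had means of 489, 871 and 407 CPM in WT, TA and TD, while Cyp2b10 was at 1.71 CPM or less. For Ces1d they were Cox5b (0.153), Timm10 (0.161) and Ndufb6 (0.168), against a median of 0.612. All 3 encode mitochondrial proteins, and Cox5b had means of 197, 179 and 94.0 CPM. For Mgll they were Cdkn2c (0.0908), Hacd2 (0.0948) and Tkt (0.101), against a median of 0.429. The likeness is a description over 12 libraries that share their genotypes and scaling. Pparg was the nearest of all tested genes to Abhd6 (0.127, against a median of 0.411), a pair singled out after its values were seen.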

How the data were processed

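RNA-seq of 12 libraries, 4 each of WT, TA and TD, was analysed, with genotype and replicate number from the sample labels. The authors sequenced on a NovaSeq instrument, aligned to GRCm38 (Ensembl release 97 per the methods) with HISAT2 2.0.1 and deposited read counts per gene without normalization; the submitters' processing notes also name bcl2fastq 2.17.1.14, cutadapt 1.9.1 and HTSeq 0.6.1. The roles of these tools and the strand setting of the counting are not given in the sources used here. The counts of all 12 libraries were equal in the series table and in the single files.

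The deposited counts were analysed in R 4.3.3 with DESeq2 1.42.0, limma 3.58.1 and edgeR 4.0.16. Low genes were removed with filterByExpr (minimum count 10, minimum total 15), libraries were scaled by TMM, and edgeR's quasi-likelihood test, two-sided, was fitted to all 12 libraries, as the study's methods name DESeq2 but no design. DESeq2 was run as an alternative. RPKM divide CPM by the union of exon bases in GENCODE M21, which held 99.8% of the 55573 identifiers. Ratios within a library used a pseudocount of 0.5. No 2 replicates agreed within sampling noise (chi-square per degree of freedom 4.95 to 38.7 over 18 pairs). The scripts were tested on simulated data, with far fewer changed genes than passed here. In the simulated TD against WT, 35.4% of genes with a true log2 change of 0.5 in either direction passed, and 77.8% of those with 1. Of the genes that passed there, 9.68% had no true change. A gene that did not pass may still differ.

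The genes, the pathway and marker lists and the tests were chosen with earlier results of these data known. Named were all 10 genes, Pparg, Plin1, Plin5, Cidec and Hilpda, the largest rise and fall in each list and comparison among genes that passed whose higher genotype averaged 5 CPM or more, and the 3 genes nearest in pattern to each of the 3 members with the widest range. A gene that this rule names is not reported here. Dexamethasone is given as 5 mM in the labels and in μM in the methods.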

Additional observations from a re-analysis of the deposited data

How the results depend on the processing

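Counts of members that passed were the same as reported, within 1.5 times, under DESeq2, its size factors in edgeR, library totals, no filter, a mean count of at least 50 and a fit to the 2 genotypes compared. Leaving out each library in turn gave 6 to 9 members for TD and 1 for TA, each against WT, and 7 to 9 for TD against TA. Scaling to 9 adipocyte markers, chosen after seeing the data, gave 3 members in place of 8 in TD against WT and 67 pathway genes in place of 36 in TD against TA. Pathway genes in TA against WT numbered 24 in the reported fit, 14 with those 2 genotypes alone, 14 with the marker scaling and 14 to 23 with a library left out (14 without WT replicate 3, 15 without WT replicate 1 or TA replicate 1). Of these alternatives, all but the marker scaling hold fewer libraries. The cause of the lower numbers was not tested for any of them. Without TA replicate 3, 45 pathway genes passed in TD against TA. Library totals moved the share of higher genes among all that passed from 51.5% to 64.6% in TD against WT and from 43.9% to 64.7% in TD against TA, with a median log2 fold change of 0.08 and 0.10 over all genes.

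Under the marker scaling the sign changed, without passing the test, for Abhd5 (0.18), G0s2 (0.0944) and Ces1f (0.17) in TD against WT, for Abhd5 (0.0211) and G0s2 (0.0881) in TD against TA and for G0s2 (0.00627) in TA against WT, while Pnpla3 in TD against TA went to 0.44 (adjusted p = 0.0120). Under library totals Pnpla3 in TD against TA went to 0.0309, and G0s2 there did not pass (-0.31, adjusted p = 0.0761), nor did it in a fit to TD and TA alone (adjusted p = 0.0552). All other changes of sign came from leaving out 1 library and concerned log2 values near 0 that did not pass: Pnpla3 in TD against WT ran from -0.0227 to 0.0823 and in TD against TA from -0.149 to 0.148; in TA against WT Pnpla2 ran from -0.0558 to 0.186, Pnpla3 from -0.117 to 0.179, Lipe from -0.0777 to 0.119, Abhd6 from -0.0357 to 0.131 and G0s2 from -0.137 to 0.0596. Of the ratios, the difference in Pnpla2/G0s2 in TA against WT ran from -0.00391 to 0.126, and in TD against WT that in Mgll/Lipe from -0.0523 to 0.0693 and that in Mgll/Abhd6 from -0.102 to 0.134. Without the filter on low counts Lipa in TD against WT did not pass (adjusted p = 0.0894) and Ces1f did (-0.34, adjusted p = 0.00665). No ratio passed under any alternative (smallest adjusted p = 0.0857, exact permutation test).

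The replicate numbers did not pair the libraries: same-numbered libraries of different genotypes correlated in their deviations at -0.24 to 0.20, over 0.1 in 2 of 12 pairs, and 2 libraries correlated best with their own number. With the replicate number as a block, 7 members passed for TD and 1 for TA, each against WT, and 9 for TD against TA; Lipa in TD against WT did not pass (0.22, adjusted p = 0.0544), and no other member's call changed. Depth limits Abhd6 most, at 94 to 214 counts per library.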
